A study of Mus musculus with 4 samples.

Results

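Matrix metalloproteinases and the tissue inhibitors that restrain them (TIMPs) were examined in AEC2, the type II epithelial cells that make surfactant and serve as progenitors in the lung alveolus. The genes were Timp1, Timp2, Timp3, Mmp8, Mmp9, Mmp12, Mmp14, Mmp15 and Mmp19, taken as every probe set of the array whose platform annotation gave 1 of these names as its single gene symbol. This found 20 of 45101 probe sets, which read 8 of the 9 genes and 8 of 18194 genes in all. No probe set carried Mmp15 as its single symbol in the annotation used here, so Mmp15 was not analysed here.

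AEC2 had been flow sorted from mouse lungs, and total RNA was measured on 4 Affymetrix arrays. The groups were Tlr4-/- mice 4 days after bleomycin, wild-type (WT) mice 4 days after bleomycin, untreated Tlr4-/- mice and untreated WT mice, with 1 array each. Bleomycin is a drug that injures the lung and leads to fibrosis, and TLR4 is a receptor of innate immunity. Each array held the pooled cells of 4 to 5 mice, so that there were no replicate arrays and no spread between animals could be measured. The sources used here do not give the strain, age and sex of the mice, the Tlr4 allele or the bleomycin dose.

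Metalloproteinases are zinc enzymes that cut collagen, elastin and other matrix and cell-surface proteins, and most are made as inactive proenzymes. TIMPs bind the active site and block it. The balance of enzyme and inhibitor is studied in lung injury because it bears on matrix turnover, leukocyte entry and epithelial repair. Macrophages, neutrophils and fibroblasts are known sources of several of these proteins, so the purity of a sorted pool matters for their mRNA levels.

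The AEC2 genes Sftpc and Sftpb had log2 signals between 13.94 and 14.06 on every array, near the top of the array's range, the part of the scale where arrays can saturate. Of 12 AEC2 markers 11 were on the array and passed the filter on low signals described next, and limma called 0 of them for bleomycin, with 1 lower at an unadjusted p under 0.05. Without overlap, 5 of the 11 were lower after bleomycin and 1 was higher, beside 25.3% and 23.1% of all genes. Nkx2-1, a lung lineage transcription factor gene, was lower by the most across the genotypes, with differences of -0.43 in Tlr4-/- and -0.37 in WT cells. One Tlr4 probe set read 6.39 in Tlr4-/- and 9.07 in WT cells after bleomycin, and 7.24 in Tlr4-/- and 8.87 in WT untreated cells. Another 2 were higher in the Tlr4-/- arrays in both pairs and 1 was dim on every array. The sources used here do not say which probe sets lie in the deleted part, so they check the labels only in part. In sorted bulk RNA, fewer cells of a type and less RNA per cell cannot be told apart.

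Values are log2 signals per gene, averaged over its probe sets, and differences between arrays are log2 differences. A gene was tested where its mean over the 4 arrays passed 7.05, the median over all genes, which left 9097. A difference between 2 arrays had a typical spread of 0.23 (log2), taken from limma's prior across the 9097 genes tested rather than from replicate arrays. Genes below the filter did not enter it. It was estimated from how far the genotypes' responses differed, so it cannot test such a difference. Of the 8 measured genes, Timp1, Timp2, Timp3 and Mmp14 passed the filter, and Mmp8, Mmp9, Mmp12 and Mmp19 were below it. No detection calls came with the values, so the lower range of the array has an uncertain scale and folds from it are uncertain in size.

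RefSeq promoter windows on build GRCm38.p6 were found for 7 of the 9 genes, in 8 windows because Mmp12 had 2 annotated starts. The 250 bases before the start are shown for Timp1, the gene with the largest response to bleomycin, for Timp2, and for both starts of Mmp12, the metalloproteinase with the largest response. All are written 5′ to 3′ on the strand of the gene in lower case. Capitals mark a match to the AP-1 motif TGANTCA, which binds Fos and Jun proteins. The Timp1 window is on the plus strand at chrX:20869916-20870165, the Timp2 window on the minus strand at chr11:118355412-118355661, and the Mmp12 windows on the plus strand at chr9:7344147-7344396 and chr9:7347124-7347373.
Timp1: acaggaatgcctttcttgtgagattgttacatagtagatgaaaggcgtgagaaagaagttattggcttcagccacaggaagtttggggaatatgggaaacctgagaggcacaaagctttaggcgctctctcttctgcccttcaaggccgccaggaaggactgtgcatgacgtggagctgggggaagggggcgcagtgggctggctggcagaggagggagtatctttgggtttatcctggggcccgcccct
Timp2: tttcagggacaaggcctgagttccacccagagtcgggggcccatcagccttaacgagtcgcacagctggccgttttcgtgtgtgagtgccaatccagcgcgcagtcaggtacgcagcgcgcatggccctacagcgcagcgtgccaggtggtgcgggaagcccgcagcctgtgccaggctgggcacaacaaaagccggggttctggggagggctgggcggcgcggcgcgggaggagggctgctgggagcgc
Mmp12 start 7344397: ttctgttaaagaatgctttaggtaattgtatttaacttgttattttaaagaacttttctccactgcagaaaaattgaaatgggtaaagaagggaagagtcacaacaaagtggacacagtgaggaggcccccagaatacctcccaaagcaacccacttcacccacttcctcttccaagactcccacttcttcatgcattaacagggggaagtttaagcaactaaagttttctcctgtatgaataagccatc
Mmp12 start 7347374: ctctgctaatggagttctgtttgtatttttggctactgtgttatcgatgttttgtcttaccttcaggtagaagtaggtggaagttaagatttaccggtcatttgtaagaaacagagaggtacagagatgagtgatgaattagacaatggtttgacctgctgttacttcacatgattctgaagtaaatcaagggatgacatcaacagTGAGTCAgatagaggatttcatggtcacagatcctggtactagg
The downstream Mmp12 start had 1 AP-1 match, TGAGTCA, which ended 38 bases before the start. It was the only AP-1 match in the 8 windows, and 6.75% of all 32851 windows of this length hold at least 1. Neither TTCNNNGAA, a STAT motif, nor the kappaB motif, which binds Rel proteins, was matched in any of the 8 windows on either strand. These motifs occur in 7.02% and 0.356% of all windows. The windows differed in base composition, with 54.4% G and C for Timp1, 68% for Timp2 and 40% and 39.6% for the Mmp12 starts, beside a median of 52.4% over all windows.

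After bleomycin, the inhibitor genes Timp1 and Timp2 rose across the genotypes, and no measured metalloproteinase or TIMP gene fell. Mmp12 and Mmp19 were more than 2-fold higher in both genotypes from dim signals, and rose in the fit that kept dim genes. Timp3 and Mmp14 were higher by small amounts that did not pass. The gene values of Mmp8 and Mmp9 differed by at most 0.21 (log2) in either genotype and were not called. Mmp9 probe set 1416298_at was lower by more in both genotypes. At day 4 the gene values of the genotypes differed by under 0.30 (log2) for all 8 genes. Single probe sets of Timp2, Timp3 and Mmp19 differed by more. The largest difference between genotypes was the Timp1 signal in untreated cells, which was 2.09-fold higher in Tlr4-/- than in WT.

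**Figure D1:**
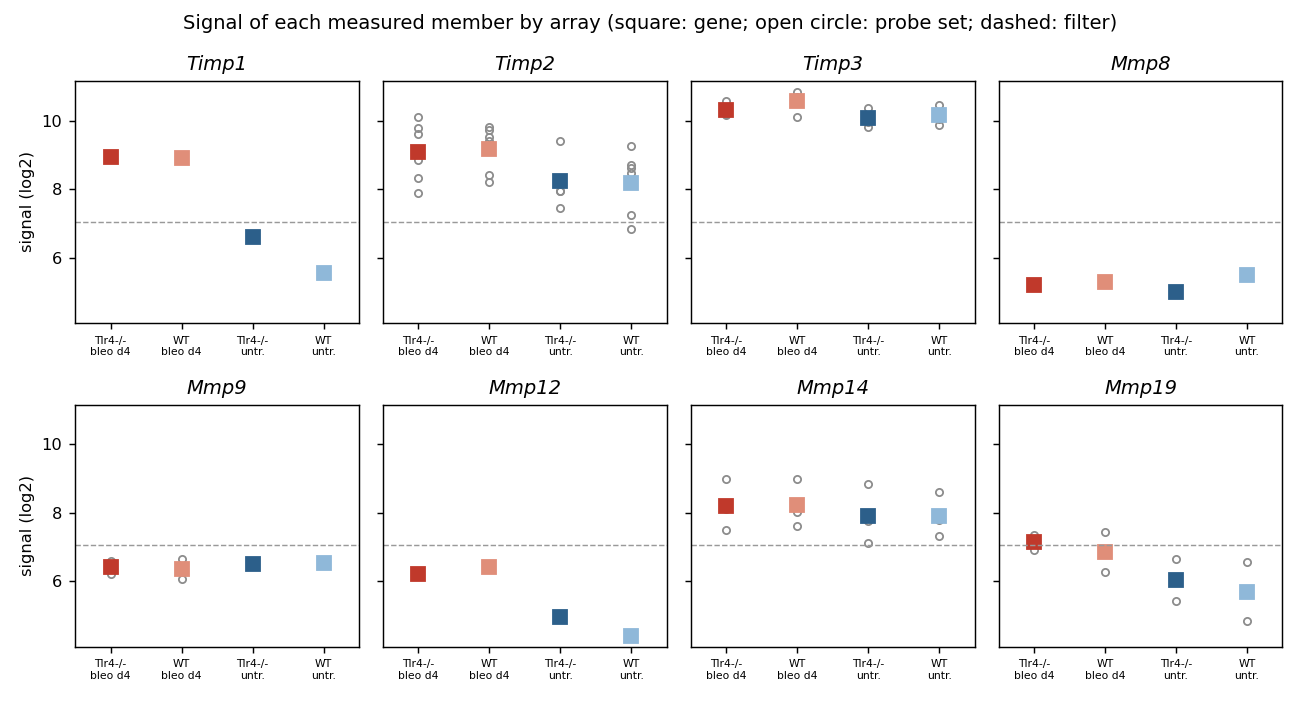
Log2 signal of the 8 measured genes on the 4 arrays (bleo d4, 4 days after bleomycin; untr., untreated). Squares are the gene value, open circles its probe sets where a gene has several, and the dashed line is the filter at 7.05. Both bleomycin arrays lie above both untreated arrays for Timp1, Timp2, Timp3, Mmp12, Mmp14 and Mmp19.

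Timp1 encodes a secreted inhibitor with a broad range of metalloproteinase targets and lies on chromosome X at chrX:20870166-20874737. Its single probe set read 8.95 in Tlr4-/- and 8.90 in WT cells after bleomycin, against 6.62 in Tlr4-/- and 5.56 in WT untreated cells. The 2 bleomycin arrays were nearly level and far above the 2 untreated arrays, which lay apart from each other. The response was therefore 5.05-fold in Tlr4-/- and 10.2-fold in WT cells. In limma, Timp1 rose by 2.84 ± 0.21 (SE, average over both genotypes, higher in 2 of 2, adjusted p = 6.49e-06). Its untreated mean of 6.09 was under the filter of 7.05, so Timp1 passed the filter through its bleomycin arrays. In the limma fit without the filter its adjusted p was 0.0155.

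Timp2, on chromosome 11, encodes an inhibitor that also takes part in activation of the gelatinase MMP2 by the MMP14 protein. Averaged over 6 probe sets, it read 9.10 in Tlr4-/- and 9.18 in WT cells after bleomycin, against 8.23 in Tlr4-/- and 8.19 in WT untreated cells. The bleomycin arrays were both higher, and the averaged values of the genotypes were close under each condition, though those of single probe sets were not always. The response was 1.83-fold in Tlr4-/- and 1.98-fold in WT cells. In limma, Timp2 rose by 0.93 ± 0.16 (SE, higher in 2 of 2 genotypes, adjusted p = 0.00237). All 6 probe sets were higher after bleomycin in both genotypes, but their sizes differed, from 0.38 to 2.18 in Tlr4-/- and from 0.49 to 1.35 in WT cells. When each probe set was tested on its own past the same kind of filter, 2 of 6 rose, 1454677_at and 1460287_at, with limma adjusted p-values of 0.00642 and 0.00530. The brightest, 1433662_s_at, was higher by 0.44 ± 0.18 (SE, limma adjusted p = 0.191), so the call of Timp2 depended on which probe sets were read.

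Among the Timp2 probe sets, 1460287_at read 10.12 in Tlr4-/- and 9.81 in WT cells after bleomycin, against 7.93 in Tlr4-/- and 8.71 in WT untreated cells. Its response was larger in Tlr4-/- by 1.08. Probe set 1420924_at read 7.88 in Tlr4-/- and 8.20 in WT cells after bleomycin, against 7.45 in Tlr4-/- and 6.85 in WT untreated cells. Its response was smaller in Tlr4-/- by 0.92, written as a difference of -0.92. The probe sets of Timp2 thus disagreed on which genotype responded more, and 4 of 6 had a smaller response in Tlr4-/-. The averaged difference between the responses was -0.12, beside a typical spread of 0.32 for a difference of 2 differences over the genes tested. That spread was estimated from such differences, so it is no test of this one.

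Timp3, on chromosome 10, encodes an inhibitor that stays bound to the matrix and also blocks several ADAM proteases. Averaged over 4 probe sets, it read 10.32 in Tlr4-/- and 10.57 in WT cells after bleomycin, against 10.08 in Tlr4-/- and 10.16 in WT untreated cells. The groups did not overlap, but the distances were small. The limma difference was 0.33 ± 0.16 (SE, adjusted p = 0.231), and the gene did not pass. Probe sets gave responses of -0.045 to 0.42 in Tlr4-/- and 0.22 to 0.59 in WT cells.

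Mmp14, on chromosome 14, encodes a membrane-anchored collagenase that activates other metalloproteinases at the cell surface. Averaged over 3 probe sets, it read 8.20 in Tlr4-/- and 8.23 in WT cells after bleomycin, against 7.92 in both Tlr4-/- and WT untreated cells. The gene values were level between genotypes, but in untreated cells the probe sets differed by -0.21 to 0.23 (Tlr4-/- minus WT), and the brightest, 1448383_at, by 0.23. The limma difference was 0.30 ± 0.15 (SE, adjusted p = 0.271) and did not pass. Each of the 3 probe sets was higher after bleomycin in both genotypes, by 0.13 to 0.39 in Tlr4-/- and 0.24 to 0.38 in WT cells.

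Mmp12, on chromosome 9, encodes macrophage metalloelastase, which cuts elastin. Its single probe set read 6.21 in Tlr4-/- and 6.42 in WT cells after bleomycin, against 4.97 in Tlr4-/- and 4.42 in WT untreated cells. All 4 signals were below the filter, and both bleomycin arrays were above both untreated ones. The difference was 2.36-fold in Tlr4-/- and 4.02-fold in WT cells. Without the filter, Mmp12 rose by 1.62 ± 0.20 (SE, limma over all 18194 genes, adjusted p = 0.0303). The difference between the responses was -0.76, under 2-fold. It was not tested, and Mmp12 was not among the genes that gave the spread of 0.32.

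Mmp19, on chromosome 10, encodes a secreted metalloproteinase with basement membrane substrates. Averaged over 2 probe sets, it read 7.15 in Tlr4-/- and 6.85 in WT cells after bleomycin, against 6.04 in Tlr4-/- and 5.70 in WT untreated cells. On average the Tlr4-/- array was the higher of each pair, by 0.29 after bleomycin and 0.34 untreated, but the probe sets differed. Tlr4-/- minus WT was 0.66 after bleomycin and 0.59 untreated for 1421977_at, and -0.07 and 0.09 for 1421976_at. The bleomycin response was 2.16-fold in Tlr4-/- and 2.23-fold in WT cells, and without the filter Mmp19 rose by 1.13 ± 0.12 (SE, limma adjusted p = 0.0244). The dimmer probe set, 1421977_at, read 6.93 in Tlr4-/- and 6.27 in WT cells after bleomycin, against 5.42 in Tlr4-/- and 4.83 in WT untreated cells. The brighter one, 1421976_at, was higher by 0.71 in Tlr4-/- and 0.88 in WT cells, under 2-fold in both.

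Mmp8 encodes neutrophil collagenase and Mmp9 encodes gelatinase B, which neutrophils and macrophages carry. Mmp8, on chromosome 9, read 5.21 in Tlr4-/- and 5.28 in WT cells after bleomycin, against 5.01 in Tlr4-/- and 5.49 in WT untreated cells. Both bleomycin values lay between the untreated ones. Mmp9, on chromosome 2, read 6.41 in Tlr4-/- and 6.36 in WT cells after bleomycin, against 6.50 in Tlr4-/- and 6.53 in WT untreated cells. The bleomycin arrays were both lower for the gene, but its 2 probe sets went opposite ways. The differences were -0.25 in Tlr4-/- and -0.47 in WT cells for 1416298_at, and 0.06 and 0.13 for 1448291_at. Without the filter, limma gave a difference of -0.01 ± 0.15 for Mmp8 (SE, adjusted p = 0.992) and of -0.13 ± 0.12 for Mmp9 (SE, adjusted p = 0.647).

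**Figure D2:**
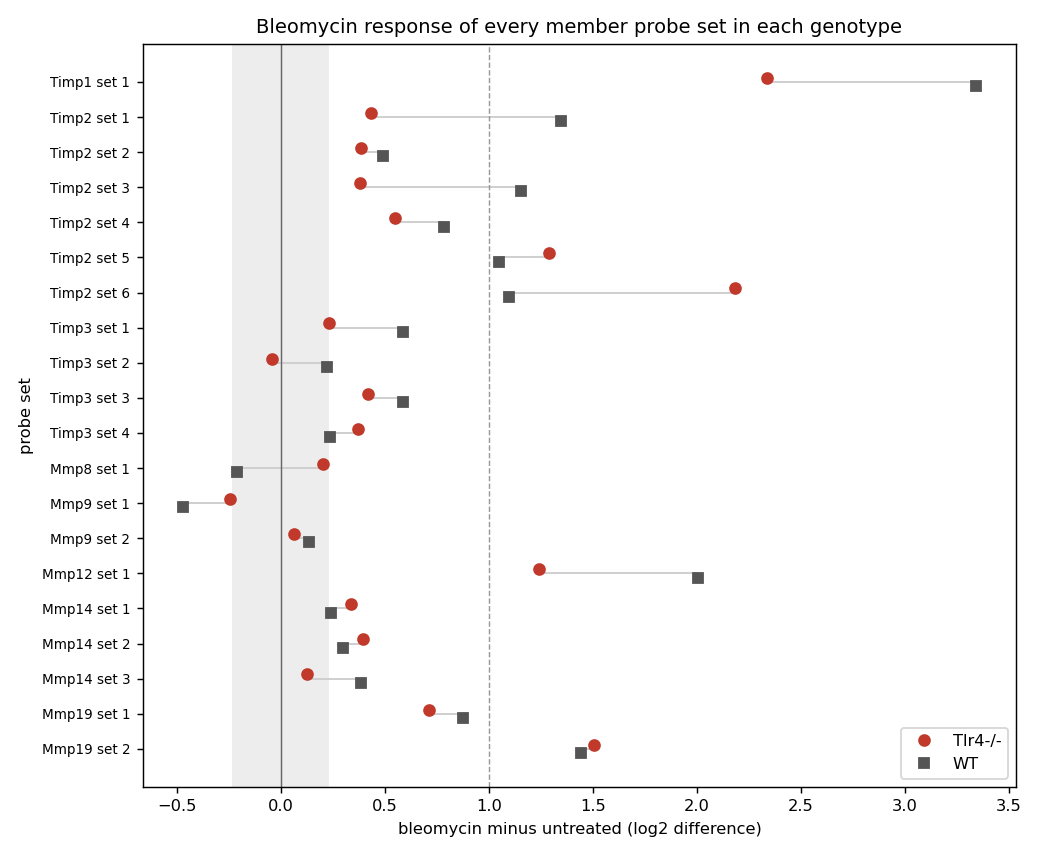
Log2 difference, bleomycin minus untreated, of all 20 probe sets in Tlr4-/- (circles) and WT cells (squares), numbered within a gene in the order of their identifiers. The grey band is the spread of 0.23 either way, and the dashed line marks 2-fold. Timp1, Mmp12 and the second Mmp19 probe set are past 2-fold in both genotypes, as are the fifth and the sixth Timp2 probe sets.

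Without the filter, 4 of the 8 measured genes rose in limma and 0 fell, namely Timp1, Timp2, Mmp12 and Mmp19, beside 1.75% of all genes that rose and 0.264% that fell. The members and lists were chosen with earlier results of these data known. Counts set beside shares of all genes, here and below, are therefore descriptions and no test. Past the filter Timp1 and Timp2 rose and 0 genes fell, with 7.18% of genes tested that rose and 2.53% that fell, and nothing is read from that count because Timp1 passed through its bleomycin arrays. Timp1, Mmp12 and Mmp19 were at least 2-fold higher in both genotypes, 3 of 8 measured genes, beside 0.989% of all genes. The share of all genes at least 2-fold higher was 1.88% in Tlr4-/- and 1.82% in WT cells. None of the 8 was 2-fold lower, beside 0.775% of all genes in Tlr4-/- and 0.445% in WT cells. Both bleomycin arrays were above both untreated arrays for 6 of 8 genes and below for 1, Mmp9, and over all genes this held for 23.1% and 25.3%. Among the 20 probe sets, 17 were above and 1 below without overlap, beside 22.5% and 24% of all probe sets with 1 symbol. At least 2-fold higher were 5 of 20 in Tlr4-/- and 7 of 20 in WT cells, beside 2.37% and 2.14%. The probe set fit past the filter tested 14, of which 3 rose and 0 fell, beside 3.78% and 1.3% of all probe sets tested. Nothing is read from that count either, because the Timp1 probe set passed through its bleomycin arrays. Without the filter 4 of 20 rose and 0 fell in limma, beside 0.83% and 0.0629%. The median response of the 8 genes was 0.58 in Tlr4-/- and 0.70 in WT cells, beside medians of -0.03 and 0.00 over all genes. The spread in these fits came from differences between the genotypes' responses. The fits with 1 array left out had no genotype term. Their spread came from the treatment that kept 2 arrays, which were of different genotype. Timp1 and Timp2 lost their calls where that pair was untreated and kept them where it was the bleomycin pair. These calls thus depended on which pair gave the spread, and are not read further. Without the Tlr4-/- bleomycin array the difference was 2.81 for Timp1 and 0.97 for Timp2, and without the WT bleomycin array 2.87 and 0.89. Without the untreated Tlr4-/- array the differences were 3.37 and 0.95, and without the untreated WT array 2.31 and 0.91.

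**Figure D3:**
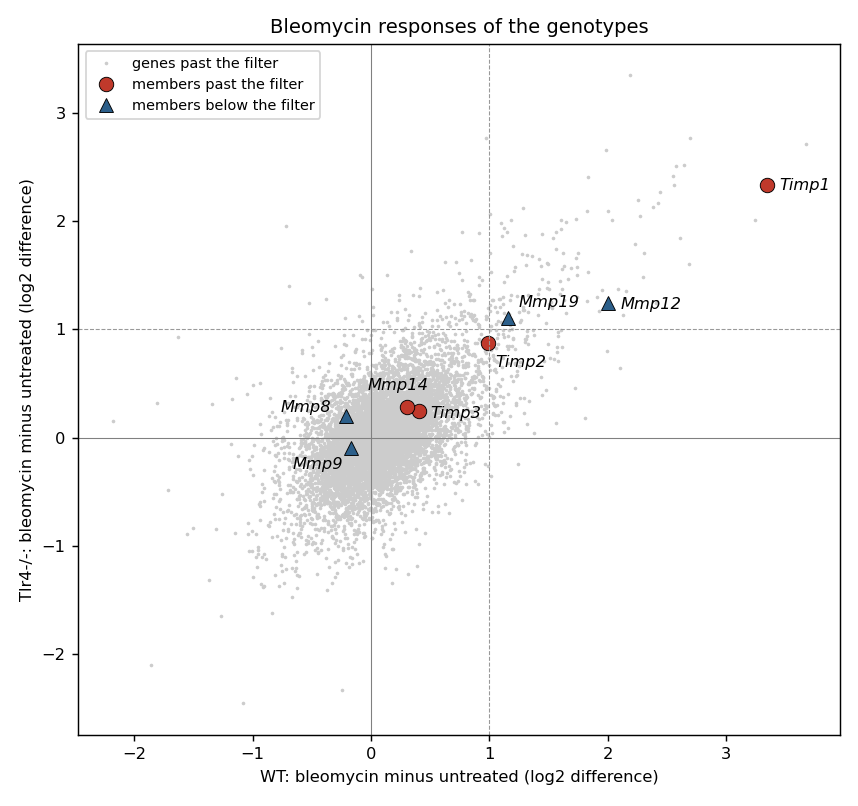
Bleomycin minus untreated (log2 difference) in WT cells on the x axis and in Tlr4-/- cells on the y axis, for 9097 genes past the filter (grey), the 4 genes of the set past it (circles) and the 4 below it (triangles). Dashed lines mark 2-fold. Timp1, at 2.34 in Tlr4-/- and 3.34 in WT cells, lies at the edge of the cloud.

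For genotype, across both treatments limma called 0 of 9097 genes for genotype, or 0% of those tested, and 822 had an unadjusted p under 0.05. Timp1 was higher in Tlr4-/- by 0.56 ± 0.21 (SE, limma adjusted p = 0.433). That average held 2 unequal parts, a difference of 0.06 after bleomycin and of 1.06 in untreated cells. Timp1 was 1 of 8 genes at least 2-fold higher in Tlr4-/- than in WT untreated cells and 0 were as much lower, beside 0.731% and 0.462% of all genes. After bleomycin 0 of 8 genes differed by 2-fold, beside 0.0989% of all genes higher and 0.0495% lower in Tlr4-/-. Timp1 was also the 1 gene whose bleomycin responses differed by 2-fold, at -1.01, where 0.808% of all genes had a response lower in Tlr4-/- by that much and 0.868% one that was higher. These single-array differences have no test. Mmp12 followed the same order as Timp1 in untreated cells, higher by 0.55 in Tlr4-/-, while Mmp8 was lower there by 0.48. For Timp2, Timp3, Mmp9 and Mmp14 the gene values of the untreated genotypes differed by at most 0.08. Probe sets of Timp2 went both ways there, from -0.78 to 0.70, and those of Mmp14 from -0.21 to 0.23.

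For each member past the filter, the genes past the filter with the most similar pattern over the 4 arrays were found. Likeness was measured by the root mean square distance of values after subtracting each gene's mean, and genes below the filter were not searched. Nearest to Timp1 were Phlda3, a p53 target, at a distance of 0.17, Ifi27l2a, an interferon-inducible gene, at 0.18, and C1qb, a complement gene of macrophages, at 0.28. The median distance to Timp1 was 1.45 over all genes past the filter. Phlda3 read 11.06 in Tlr4-/- and 10.88 in WT cells after bleomycin, against 9.05 in Tlr4-/- and 7.64 in WT untreated cells. It had the same order of arrays as Timp1, with the untreated Tlr4-/- array above the untreated WT array. That order followed from choosing Phlda3 for its likeness to Timp1. The nearest genes to Timp2 were Adar, Ccdc122 and Akr1c13, those to Timp3 were Exoc5, Acad9 and Cacfd1, and those to Mmp14 were Apoo, Pbxip1 and Cd2ap. The distances ran from 0.029 to 0.049 for Timp2, from 0.011 to 0.032 for Timp3 and from 0.011 to 0.013 for Mmp14, over 4 arrays. The median distances over all genes past the filter were 0.46, 0.24 and 0.20.

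Related genes were read from lists of other metalloproteinases, other inhibitors, ADAM and ADAMTS proteases and activation genes. Among genes past the filter, Plaur rose and Adam19 fell, where 7.18% of all genes tested rose and 2.53% fell. The 2 largest increases, with dim genes included, were in the urokinase system, in which the urokinase protease and its receptor generate plasmin, an activator of proenzymes, at the cell surface. Plau, the urokinase gene, read 7.61 in Tlr4-/- and 7.54 in WT cells after bleomycin, against 5.72 in Tlr4-/- and 5.37 in WT untreated cells. It was below the filter and rose without it (limma adjusted p = 0.0142). Plaur, the receptor gene, read 9.55 in Tlr4-/- and 9.24 in WT cells after bleomycin, against 8.55 in Tlr4-/- and 8.05 in WT untreated cells, and rose by 1.10 ± 0.16 (SE, limma adjusted p = 8.44e-04). Both genes were higher in both genotypes without overlap. Of 7 activation genes on the array 3 passed the filter, of which 1 rose and 0 fell, with 1 lower at an unadjusted p under 0.05.

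Of 13 other metalloproteinase genes on the array 3 passed the filter, and limma called 0 of them in either direction, with 0 at an unadjusted p under 0.05. Mmp2, the gelatinase that MMP14 activates, was below the filter. It read 6.76 in Tlr4-/- and 6.45 in WT cells after bleomycin, against 5.63 in Tlr4-/- and 5.42 in WT untreated cells. It was 1 of the 13 that rose without the filter (limma adjusted p = 0.0262), and 0 fell, beside 1.75% and 0.264% of all genes. Mmp3, which encodes stromelysin, read 7.22 in Tlr4-/- and 6.70 in WT cells after bleomycin, against 6.43 in Tlr4-/- and 6.54 in WT untreated cells. Its bleomycin arrays were both higher, and it was not called without the filter (limma adjusted p = 0.263).

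Of the other inhibitors Timp4, Reck and A2m, limma called 0 in either fit, with 0 at an unadjusted p under 0.05. Reck, a membrane-anchored inhibitor, differed by -0.28 ± 0.16 and A2m, a plasma protease trap, by -0.14 ± 0.16 (SE). ADAM genes had 1 of 6 past the filter that fell and 0 that rose, beside 2.53% and 7.18% of all genes tested. At an unadjusted p under 0.05, 1 was higher and 2 were lower. Adam19 read 10.66 in Tlr4-/- and 10.99 in WT cells after bleomycin, against 11.53 in Tlr4-/- and 11.69 in WT untreated cells. It fell by 0.78 ± 0.16 on the log2 scale (SE, limma adjusted p = 0.00744), but was not called without the filter (limma adjusted p = 0.0545). Adam28, below the filter, read 6.44 in Tlr4-/- and 6.18 in WT cells after bleomycin, against 7.67 in Tlr4-/- and 7.38 in WT untreated cells, and fell in the fit without the filter (limma adjusted p = 0.0208). ADAMTS genes had 0 of 3 past the filter called by limma, with 0 higher and 1 lower at an unadjusted p under 0.05. Adamts7 differed by -0.44 ± 0.16 (SE), and Adamts8, dim on every array, differed by -0.31 in Tlr4-/- and -0.83 in WT cells.

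**Figure D4:**
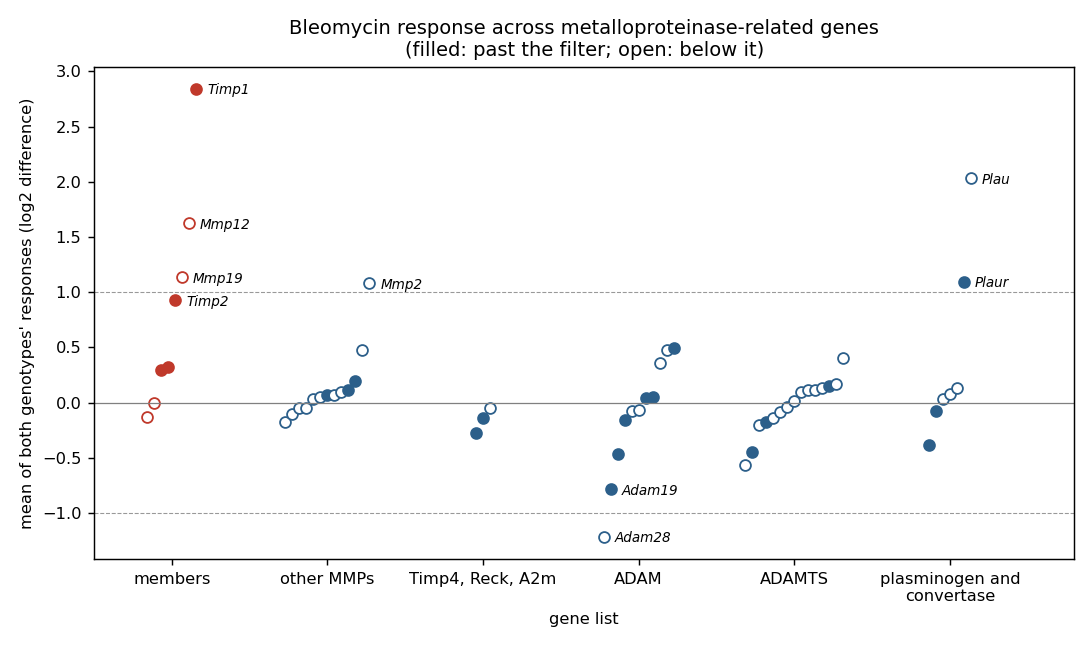
Mean of the genotypes' log2 differences, bleomycin minus untreated, for the 8 measured genes (members, red) and for related genes by list (blue); each point is a gene, filled if past the filter and open if below it, and dashed lines mark 2-fold. Timp1, Mmp12, Mmp19 and, among related genes, Plau, Plaur and Mmp2 are above the upper line, and Adam28 is below the lower one.

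Markers of other cells moved with some of these genes. Of 15 macrophage and leukocyte markers, 9 rose and 0 fell in limma without the filter, beside 1.75% and 0.264% of all genes. Past the filter 11 of 12 rose, and the untreated means of some of these, among them C1qa, C1qc and Itgax, were under it. The summed linear signal of the 15 was 11890 in Tlr4-/- and 10052 in WT cells after bleomycin, against 4183 in Tlr4-/- and 4123 in WT untreated cells. Both bleomycin arrays were above both untreated arrays for 14 of 15, the exception being Itgam, beside 23.1% of all genes. Mmp12 is itself a macrophage gene, and its rise without the filter went together with this list. The part of these cells in the results for Timp1, Mmp12, Mmp19 and the related genes was not tested.

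Neutrophil markers, set beside Mmp8 and Mmp9, had 9 of 11 genes on the array and 3 past the filter, of which Ltf rose and 0 fell. For this list and the next ones, the shares of all genes tested past the filter were 7.18% that rose and 2.53% that fell. Without the filter they were 1.75% and 0.264%. The summed linear signal of the neutrophil markers was 3394 in Tlr4-/- and 4845 in WT cells after bleomycin, against 3005 in Tlr4-/- and 4229 in WT untreated cells. The WT array was the higher of each pair, and the 3 brightest members were S100a8 (10.12 to 10.65), S100a9 (10.46 to 11.26) and Ltf (7.01 to 8.70). The granule genes Elane and Mpo were dim, at 5.20 or below on every array. Fibroblast markers summed to 1425 in Tlr4-/- and 1631 in WT cells after bleomycin, against 649 in Tlr4-/- and 843 in WT untreated cells, and without the filter 3 of 9 rose in limma and 0 fell. The 3 were the fibrillar collagen genes Col1a1, Col1a2 and Col3a1, with limma adjusted p-values of 0.0174, 0.0252 and 0.0142. Dcn was also higher in both genotypes, by 0.81 in Tlr4-/- and 0.33 in WT cells, and was not called. Tcf21, Lum and Postn read below 5 on every array. Mesothelial markers summed to 1464 in Tlr4-/- and 1817 in WT cells after bleomycin, against 415 in Tlr4-/- and 967 in WT untreated cells, and without the filter 2 of 6 rose in limma, Lrrn4 and Msln, and 0 fell. Past the filter Gpm6a and Upk3b rose too, Gpm6a with an untreated mean of 6.75 under it, and neither was called without the filter (limma adjusted p = 0.0989 and 0.101). Fibroblasts and mesothelium also express TIMP genes, and their part in the results for Timp1, Timp2, Timp3, Mmp14 and Mmp2 was not tested. Airway markers summed to 23297 in Tlr4-/- and 23417 in WT cells after bleomycin, against 18001 in Tlr4-/- and 30630 in WT untreated cells. Past the filter 2 of 7 fell, Dynlrb2 and Tppp3 (limma adjusted p = 0.0149 and 0.0392), and 0 rose, against 0 of 8 that fell without it. Endothelial markers summed to between 849 and 975 on the 4 arrays, and limma called 0 of 2 past the filter, with 0 at an unadjusted p under 0.05. Without the filter 1 of 9 fell, Pecam1, with differences of -1.09 in Tlr4-/- and -0.81 in WT cells (limma adjusted p = 0.0407), and 0 rose.

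The pools also differed in sex-linked genes. The Y-linked gene Eif2s3y read 8.87 in Tlr4-/- and 8.85 in WT cells after bleomycin, against 6.86 in Tlr4-/- and 6.82 in WT untreated cells. Xist read 10.04 in Tlr4-/- and 10.79 in WT cells after bleomycin, against 11.30 in Tlr4-/- and 11.41 in WT untreated cells. Eif2s3y was higher and Xist lower on both bleomycin arrays. Timp1 is X-linked, and treatment and these differences between the pools cannot be told apart.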

How the data were processed

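RNA of sorted AEC2 pools was amplified and biotin labelled, per the labels' protocols. The authors deposited 1 value per probe set and array, taken here as a log2 signal because all values lay between 3.07 and 14.55 with array medians of 6.93 to 6.98; the software and normalization are not given in the sources used here. Of 45101 probe sets, 34958 had 1 gene symbol, and for 34754 of these the symbol was updated through the RefSeq gene table. Probe sets were averaged per gene, and genes above the median of 7.05 were tested. The bleomycin effect (genotype as covariate) and the genotype effect (treatment as covariate) were fitted with limma 3.58.1 in R 4.3.3, with 1 residual degree of freedom per gene, and Benjamini-Hochberg adjusted p-values under 0.05 were called. Single-array differences were not tested, and 2-fold or more was counted. The number of arrays limits the precision. Named genes were all members, related genes that limma called, up to 2 of each related list with the largest response, and the 3 nearest genes to each member past the filter; other genes were named after their values were seen. The members and lists were chosen with earlier results of these data known. Alternatives changed the filter, probe set rule, scaling, moderation, covariate and arrays used, and each probe set was tested alone.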

Additional observations from a re-analysis of the deposited data

Results flagged for a closer look

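In 5 cases a gene's differences had opposite signs in the arrays compared, and the difference between the 2 values was not tested in any of them. The bleomycin response of Mmp8 was 0.20 in Tlr4-/- and -0.21 in WT cells. Each was within the spread of 0.23 between arrays, which was taken from genes past the filter and so not from Mmp8. The difference of Tlr4-/- minus WT for Mmp12 was -0.21 after bleomycin and 0.55 in untreated cells. For Timp2 it was -0.082 after bleomycin and 0.037 untreated, for Mmp9 0.051 and -0.026, and for Mmp14 -0.021 and 0.00098, all within that spread.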

How the results depend on the processing

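Over all genes, 653 rose and 230 fell after bleomycin. These counts were 279 and 62 when each gene was read from its brightest probe set, 319 and 48 without the filter, 378 and 106 with arrays centred on their medians, 254 and 61 with no genotype term, and 290 and 22 for single probe sets without a filter, an alternative chosen after seeing the data. Leaving out each array in turn, with no other factor, gave 0 to 802 that rose and 0 to 227 that fell, where a lone array of a treatment is assumed to vary like the others; without the untreated WT array 375 rose, and the lowest counts came without a bleomycin array. Of the measured genes 2 rose in the main setting, 1 (Timp1) with the brightest probe set, 4 without the filter, and 0 to 2 with an array left out; 0 fell in any of these. With the brightest probe set Timp2 differed by 0.44 (limma adjusted p = 0.172). Members past the filter at least 2-fold higher after bleomycin were 1 in each genotype. In Tlr4-/- they were 3 without the filter and 3 as probe sets, and in WT cells 3 without the filter, 2 after median centring (with Timp2) and 5 as probe sets. Among single probe sets 1 had a response at least 2-fold higher in Tlr4-/-, against 0 genes. Limma called 0 genes for genotype in every alternative run. Among limma effects of single members under alternatives, 75 kept their call or lack of one and 5 lost their call, all of Timp1 or Timp2. Some genotype effects that were not called changed sign. That of Timp1 was 0.56 in the main setting and -1.11 without the untreated WT array. The latter fit had no treatment term and set the WT bleomycin array alone against both Tlr4-/- arrays. The bleomycin response therefore entered its genotype difference, and nothing is read from that change of sign. Of the single-array differences, 111 moved by less than the spread and 9 moved by more than the spread, all with the brightest probe set. The cause was not tested. No paired analysis was possible because the labels give no replicate numbers to block on; the genotype term of the main fit already sets treated against untreated cells within each genotype. Signals under the filter, without detection calls, limit what can be said of Mmp8, Mmp9, Mmp12 and Mmp19.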
